A study of Mus musculus with 11 samples.

Results

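Hair follicle stem cells were examined through 10 marker genes, Krt15, Cd34, Sox9, Lhx2, Nfatc1, Tcf7l1, Tbx1, Lgr5, Lgr6 and Lrig1, in bulk RNA sequencing of neonatal mouse whole skin. The members were chosen by gene name, and each of the 10 names had 1 row among the 49315 genes of the count table. All 10 passed the filter on low counts that left 18375 genes for testing, and their smallest count in any mouse was 667, for Lgr6.

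All 11 mice carried Foxp3-DTR, a diphtheria toxin (DT) receptor expressed under the control of the Foxp3 promoter, on a C57BL/6J background, so that DT removes regulatory T cells (Tregs) wherever they reside and not in skin alone. The control group (labelled PBS) held 2 mice that also carried the receptor but received no toxin. ΔETreg mice (labelled EarlyDT, n = 3) received DT at 30 ng per g of body weight on postnatal day (P) 6 and P8 and were harvested on P9. ΔLTreg mice (LateDT, n = 3) received the same dose on P10 and P12, and ΔTreg mice (FullDT, n = 3) received 4 doses from P6 to P12, and both groups were harvested on P13. The labels give no harvest day for the controls, while the study calls its comparisons age-matched. The same 2 control libraries served in comparisons with groups of both harvest days here, so no control mouse can match both days in age, and where ages differ, age and toxin cannot be told apart. Each library was taken to come from 1 mouse, and mice are numbered here within their group only to name them.

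The hair follicle is an epithelial appendage that regrows in cycles from stem cells in the bulge and in the hair germ below it. The isthmus lies above the bulge. In the first postnatal weeks follicles are still completing their first growth phase, and cells that will form the bulge already express some of these markers while the adult bulge is not yet set apart. Krt15, Cd34, Sox9, Lhx2, Nfatc1, Tcf7l1 and Tbx1 are known from the bulge, Lgr5 from the lower bulge and germ, and Lgr6 and Lrig1 from the isthmus and upper follicle. Several are not restricted to the follicle, since Krt15 also marks basal epidermis in young skin and Cd34 is expressed by endothelial cells and fibroblasts.

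Total counts ranged from 23377571 to 34159435 per library. Foxp3 itself was near the limit of whole skin sequencing, at 14 to 20 counts in the control libraries and 10 to 16, 13 to 23 and 9 to 19 counts in those of the ΔETreg, ΔLTreg and ΔTreg groups, so the removal of Tregs could not be read from it at this depth. By flow cytometry, the paper reports efficient loss of skin Tregs on P9 after the early doses and on P13 after the late ones. The summed level of 6 leukocyte genes was 164 to 202 CPM (counts per 1000000, with library sizes scaled by the TMM method) in ΔTreg mice and 44.8 to 104 CPM in the other 8 mice. The summed level of 8 basal keratinocyte genes was 8830 to 9816 CPM over control and ΔETreg mice, 9928 to 11246 CPM over ΔLTreg mice and 11031 to 11266 CPM over ΔTreg mice. In whole skin, fewer cells of a type and less RNA per cell cannot be told apart.

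Levels of the 10 markers were ordered per length of exon. Krt15, a keratin of the basal and bulge layers, was the most abundant, with a median over the 11 mice of 390 CPM per kb of exon. Sox9 (median 49.9) and Lrig1 (41.1) followed, then Tbx1 (25.6), Lhx2 (23.1), Tcf7l1 (14.5), Cd34 (12.03), Nfatc1 (4.84), Lgr6 (4.27) and Lgr5 (3.16), all in CPM per kb. The ranges over mice overlapped for neighbouring pairs Sox9 and Lrig1, Tbx1 and Lhx2, Tcf7l1 and Cd34, Nfatc1 and Lgr6, and Lgr6 and Lgr5, and were apart for the 4 other neighbouring pairs. In every one of the 11 mice Lgr6 was above Lgr5 on this scale, and Tbx1 above Lhx2.

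**Figure D1:**
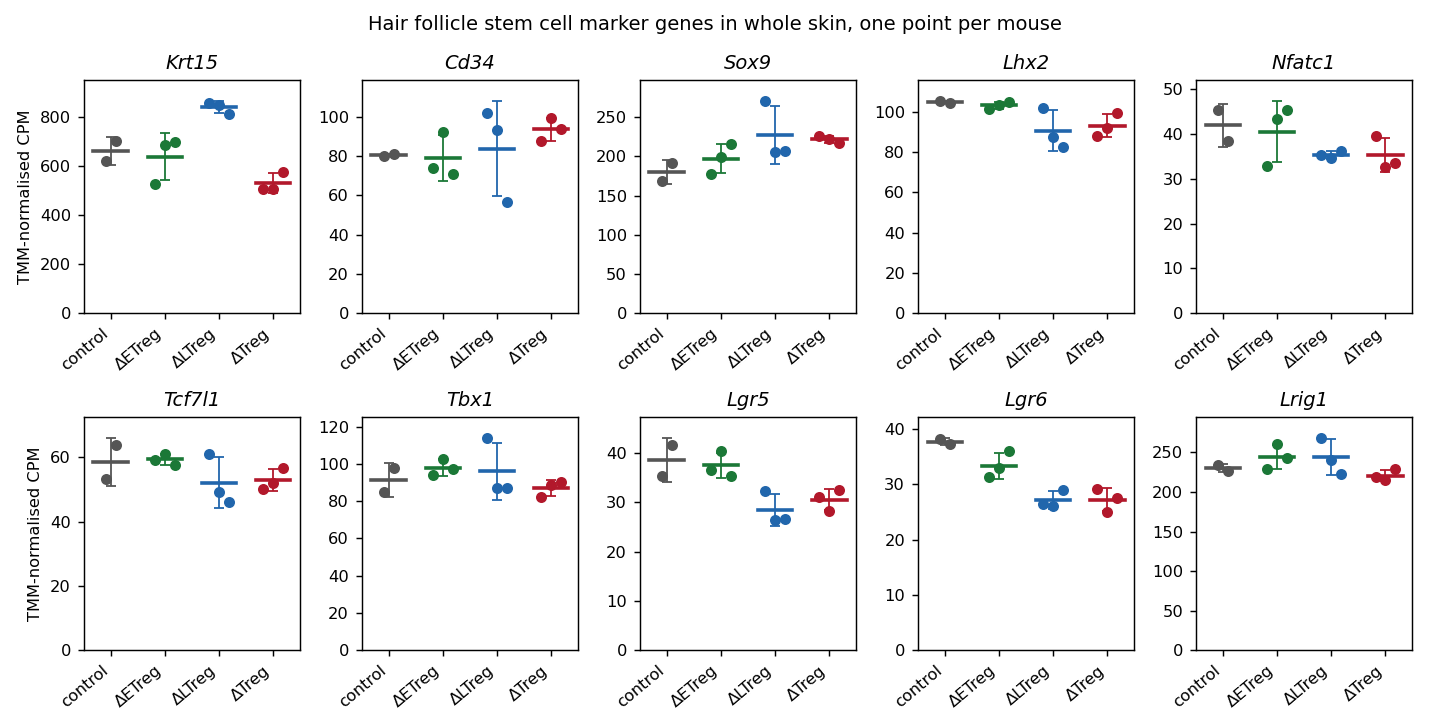
Level of each marker in CPM scaled by the TMM method (y axis, starting at 0, with its own scale in each panel) in the 4 groups, 1 point per mouse; horizontal bars are group means and error bars 1 SD (n = 2 for control, n = 3 for the others). Krt15 in ΔLTreg mice sits at 814 to 860 CPM, above ΔTreg mice at 506 to 577 CPM, and Lgr5 and Lgr6 are lower in the ΔLTreg and ΔTreg groups than in control and ΔETreg mice.

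The keratin Krt15 (ENSMUSG00000054146, chromosome 11 of GRCm38, 100131758 to 100135928) separated the P13 groups more than any other marker. Its level was 621 and 704 CPM in the control mice, 528, 689 and 699 CPM in ΔETreg mice, 860, 852 and 814 CPM in ΔLTreg mice, and 506, 509 and 577 CPM in ΔTreg mice. Both P13 groups were thus apart from control in opposite directions, with all 3 ΔLTreg mice above and all 3 ΔTreg mice below both control mice. Of all genes tested, 15% were higher in ΔLTreg and 25.8% lower in ΔTreg skin than in control without overlap. Between the P13 groups, which differ in the 2 early doses on P6 and P8, Krt15 in ΔTreg skin was at 0.631 times its level in ΔLTreg skin, a log2 fold change of -0.66 (SE 0.105, 95% interval -0.90 to -0.43, adjusted p = 0.00136, edgeR quasi-likelihood test with Benjamini-Hochberg adjustment). Krt15 was the 1 marker of 10 past adjustment in that comparison, in which 16.8% of all genes tested passed and 6.11% were lower in ΔTreg skin. In the same comparison 5 of 6 sebaceous gland genes were lower, among them Awat2 by -0.80 and Soat1 by -0.46 (adjusted p = 0.00257 and 0.00367), and all 6 leukocyte genes were higher, where 10.7% of all genes were. The 6 sebaceous genes summed to 1005 to 1302 CPM in ΔTreg and 1473 to 1951 CPM in ΔLTreg mice, and their part in the Krt15 values was not tested. Both lists were chosen with earlier results of these data known. Neither P13 group passed against control, with a log2 fold change of -0.32 (SE 0.116, adjusted p = 0.0745) in ΔTreg and 0.35 (SE 0.118, adjusted p = 0.129) in ΔLTreg skin. DESeq2 on the groups compared gave 0.00431 and 0.0119 for these adjusted p-values, so the calls against control depend on the test. Against ΔETreg skin, Krt15 in ΔTreg skin was -0.27 (SE 0.105, adjusted p = 0.0928), with overlapping mice.

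Krt15 was also lower in ΔETreg than in ΔLTreg skin, by a log2 fold change of -0.40 (SE 0.105, adjusted p = 0.0483), with all 3 ΔETreg mice below all 3 ΔLTreg mice. This call was lost whichever of the 6 mice was left out, at adjusted p from 0.0579 to 0.108. Krt15 belongs to a family of similar keratin genes on the same chromosome, and only uniquely assigned reads were counted.

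Lgr5 and Lgr6 are receptors that bind R-spondins, secreted proteins that raise WNT signalling in the cells that carry them. Lgr6 (ENSMUSG00000042793, chromosome 1, 134983301 to 135105276) stood at 38.2 and 37.3 CPM in control, 31.3, 32.9 and 36.0 CPM in ΔETreg, 26.4, 26.2 and 29.1 CPM in ΔLTreg and 29.2, 25.0 and 27.5 CPM in ΔTreg mice. Lgr5 (ENSMUSG00000020140, chromosome 10, 115450311 to 115587780) stood at 35.4 and 41.7 CPM in control, 36.6, 40.4 and 35.3 CPM in ΔETreg, 32.2, 26.4 and 26.6 CPM in ΔLTreg and 31.0, 28.1 and 32.4 CPM in ΔTreg mice. For both receptors, all 6 mice harvested on P13 were below all 5 control and ΔETreg mice, a range comparison made after the values were seen. The share of all genes tested with this split was not counted. Against control alone, 25.8% of genes were lower without overlap in ΔTreg and 17.2% in ΔLTreg skin.

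Lgr6 was lower than control by a log2 fold change of -0.47 in ΔTreg skin (SE 0.0826, adjusted p = 0.00212) and by the same -0.47 in ΔLTreg skin (SE 0.0825, adjusted p = 0.0106), or 0.721 times the control level in each. Lgr5 was lower by -0.34 (SE 0.107, adjusted p = 0.0454) in ΔTreg and by -0.44 (SE 0.107, adjusted p = 0.0446) in ΔLTreg skin. These were the 2 markers of 10 past adjustment in each comparison, where 21.5% of all genes tested passed in ΔTreg against control (9.39% lower) and 4.55% in ΔLTreg against control (2.69% lower). The Lgr6 call in ΔTreg skin held with each of the 5 mice left out in turn, at adjusted p up to 0.0161, while the Lgr6 call in ΔLTreg skin was lost without control mouse 1 (adjusted p = 0.0716). The Lgr5 call in ΔTreg skin was lost without control mouse 2 (adjusted p = 0.329) or without ΔTreg mouse 1, 2 or 3 (0.0872, 0.141 and 0.0541), and that in ΔLTreg skin without control mouse 1 or 2 (0.0655 and 0.235) or ΔLTreg mouse 2 or 3 (0.103 and 0.0907).

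Between the P13 groups the receptors were nearly level. The ΔTreg minus ΔLTreg difference had a 95% interval of -0.17 to 0.17 on the log2 scale for Lgr6 and -0.11 to 0.31 for Lgr5. Against ΔETreg skin both receptors were lower in ΔTreg skin, Lgr6 by -0.29 (SE 0.0748, adjusted p = 0.0151) and Lgr5 by -0.30 (SE 0.0963, adjusted p = 0.0468). Both were also higher in ΔETreg than in ΔLTreg skin, Lgr5 by 0.40 (SE 0.0965, adjusted p = 0.0356) and Lgr6 by 0.29 (SE 0.0747, adjusted p = 0.0418). In these comparisons the dosing and the harvest day both differ and cannot be told apart. The shares of all genes past adjustment were 23.1% for ΔTreg against ΔETreg, with 2 of 10 markers, and 6.38% for ΔETreg against ΔLTreg, with 3 of 10 markers when Krt15 is counted.

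Of these 4 receptor calls, Lgr5 in ΔTreg against ΔETreg skin was lost whichever of the 6 mice was left out (adjusted p 0.0565 to 0.166), and Lgr5 in ΔETreg against ΔLTreg skin held only without ΔLTreg mouse 1 (0.0142) and was otherwise between 0.0615 and 0.146. Lgr6 in ΔETreg against ΔLTreg skin held only without ΔLTreg mouse 3 (0.0280) and was otherwise between 0.0584 and 0.132, and Lgr6 in ΔTreg against ΔETreg skin was lost without ΔETreg mouse 3 (0.0637) or ΔTreg mouse 2 (0.0664).

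The R-spondins and WNT pathway genes around these receptors were taken as a list of 15 genes. The list was chosen with earlier results of these data known, so its counts are a description and no independent test. In ΔTreg against control skin 7 of the 15 fell, none rose and 8 did not pass, where 9.39% of all genes fell, with a median log2 fold change of -0.18 beside -0.01 over all genes tested. Rspo1, a secreted ligand of the LGR receptors, was at 5.11 CPM on average in ΔTreg and 10.3 CPM in control skin, a log2 fold change of -1.01 (SE 0.146, adjusted p = 0.000695). Nkd1, a WNT target and feedback inhibitor, changed by -0.69 (SE 0.150, adjusted p = 0.00765). Rspo2, Rspo3, Znrf3, Lef1 and Notum also fell, named after their values were seen. In ΔLTreg against control skin Rspo1 was the 1 gene of the 15 to pass, at -0.67 (SE 0.145, adjusted p = 0.0278), where 4.55% of all genes tested passed. Rspo1, Nkd1 and Notum, 3 of the 15, were higher in ΔETreg than in ΔLTreg skin, where 6.38% of all genes passed in either direction. Dosing and harvest day both differ in that comparison and cannot be told apart.

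The 250 bases before a RefSeq start are shown for Lgr6, the marker whose lower level in ΔTreg than in control skin held under every setting, and for Lhx2, a bulge transcription factor that passed in no comparison of the main test. Sequences were from RefSeq on GRCm38.p6, 6 of the 10 members had an entry, and capitals mark GC boxes (GGGCGG on either strand).
Lgr6 promoter, chr1:135105277-135105526, minus strand: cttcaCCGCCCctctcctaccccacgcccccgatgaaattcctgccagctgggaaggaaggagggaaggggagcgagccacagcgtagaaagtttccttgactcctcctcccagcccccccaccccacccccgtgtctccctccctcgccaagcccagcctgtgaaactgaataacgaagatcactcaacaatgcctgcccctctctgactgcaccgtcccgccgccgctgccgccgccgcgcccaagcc
Lhx2 promoter, chr2:38339031-38339280, plus strand: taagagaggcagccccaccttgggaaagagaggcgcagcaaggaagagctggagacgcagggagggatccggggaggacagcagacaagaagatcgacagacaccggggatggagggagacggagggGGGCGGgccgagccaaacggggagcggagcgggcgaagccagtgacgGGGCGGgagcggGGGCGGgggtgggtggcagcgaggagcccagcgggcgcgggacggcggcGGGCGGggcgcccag
The Lgr6 window held 1 GC box, 245 bases before the start, and 65.2% G and C. The Lhx2 window held 4, at 123, 76, 64 and 15 bases before the start, and 72.8% G and C, where the median over 32851 promoters was 52.4%. RefSeq has another Lhx2 start, whose window (chr2:38351058-38351307) held 0 GC boxes and 68.4% G and C. At least 1 GC box stood in 32.7% of all promoters. None of these 3 windows held TATAAA (12.4% of promoters), CCAAT (33.8%), the TCF/LEF core CTTTGA (13.8%), the SOX core ACAAAG (16.5%), the LIM homeodomain core TAATTA (4.84%) or the AP-1 motif TGANTCA (6.75%), each searched on both strands.

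**Figure D2:**
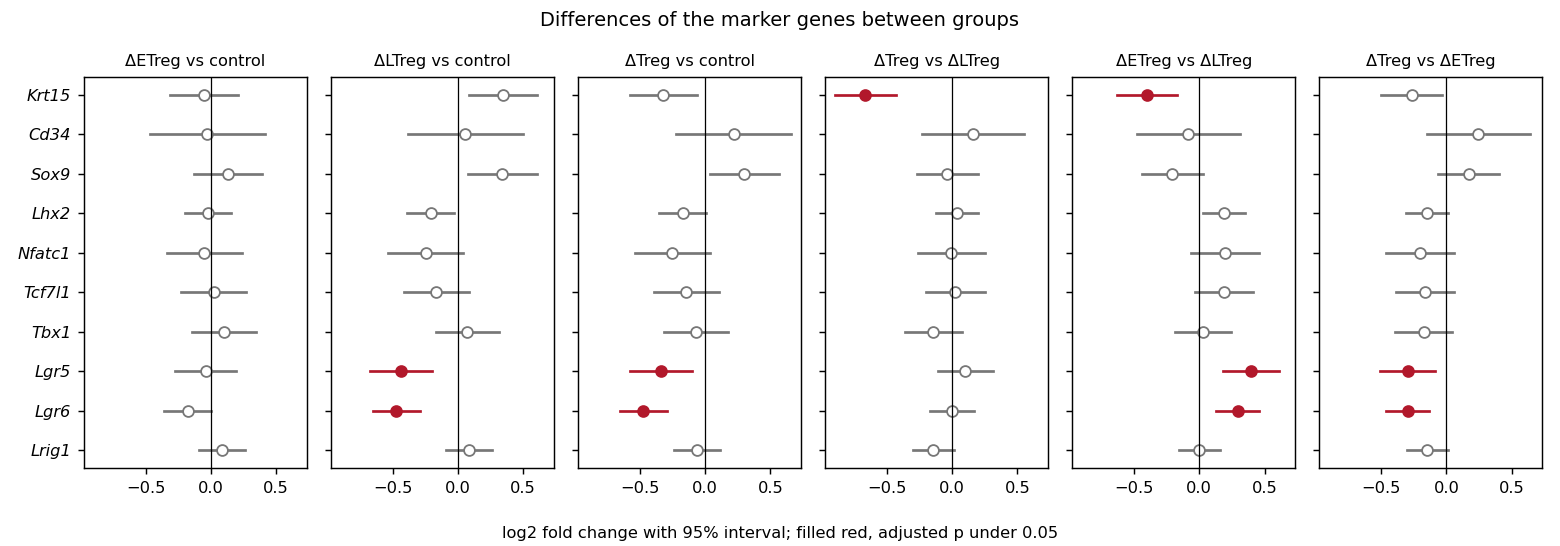
Log2 fold change (x axis) of each marker in the 6 comparisons, as points with 95% intervals; red filled points passed an adjusted p of 0.05 in the edgeR test. Krt15 stands at -0.66 in ΔTreg against ΔLTreg skin while the other 9 markers lie between -0.14 and 0.16, and no marker passed in ΔETreg against control skin.

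In ΔETreg skin no marker was distinguishable from control. None of the 10 passed adjustment or an unadjusted p of 0.05 with edgeR, and DESeq2 called none, where 0.00544% of all genes tested passed adjustment and 4.75% the unadjusted threshold with edgeR. The log2 fold changes ran from -0.18 for Lgr6 (95% interval -0.36 to 0.00) to 0.13 for Sox9 (-0.13 to 0.40), with a median of -0.02 beside -0.01 over all genes. Lgr6 was the 1 marker whose groups did not overlap, with all 3 ΔETreg mice below both control mice, where 10.3% of genes tested were lower without overlap. The intervals leave room for differences of up to about 0.47 for Cd34, the marker with the widest one (-0.47 to 0.41).

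The transcription factor Sox9, required for follicle stem cells to form, read 169 and 191 CPM in control, 177, 199 and 215 CPM in ΔETreg, 270, 206 and 206 CPM in ΔLTreg and 226, 222 and 217 CPM in ΔTreg mice. All 6 P13 mice were above both control mice, and the ΔETreg mice overlapped both. Against control, 15% of all genes tested were higher without overlap in ΔLTreg and 26.8% in ΔTreg skin. The log2 fold change was 0.34 in ΔLTreg (SE 0.120, adjusted p = 0.141) and 0.30 in ΔTreg skin (SE 0.120, adjusted p = 0.0998), and neither passed. With DESeq2 the ΔTreg value passed (adjusted p = 0.00183), and the ΔLTreg value did not (0.288).

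Lhx2, a LIM homeodomain factor that keeps bulge cells undifferentiated, was at 105 and 104 CPM in control, 102, 103 and 105 CPM in ΔETreg, 102, 87.4 and 82.3 CPM in ΔLTreg and 87.9, 92.0 and 99.2 CPM in ΔTreg mice. Both control mice were above all 6 P13 mice, and the differences, -0.21 in ΔLTreg (SE 0.0809, adjusted p = 0.171) and -0.17 in ΔTreg skin (SE 0.0809, adjusted p = 0.161), did not pass. Against control, 17.2% of all genes tested were lower without overlap in ΔLTreg and 25.8% in ΔTreg skin. Without ΔLTreg mouse 1 the ΔLTreg difference was -0.30 and passed (adjusted p = 0.0189). It passed under no other setting and with no other mouse left out.

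Nfatc1, a calcineurin-regulated factor that holds bulge cells quiescent, was at 45.2 and 38.4 CPM in control, 32.7, 43.4 and 45.3 CPM in ΔETreg, 35.2, 34.5 and 36.1 CPM in ΔLTreg and 39.5, 32.7 and 33.4 CPM in ΔTreg mice. Its log2 fold change against control was -0.25 in both P13 groups (SE 0.131 in each), with adjusted p of 0.326 in ΔLTreg and 0.202 in ΔTreg skin. Tcf7l1, a repressor of WNT target genes in the bulge, was at 53.2 and 63.8 CPM in control, 57.6 to 61.1 CPM in ΔETreg, 46.03 to 61.1 CPM in ΔLTreg and 50.1 to 56.7 CPM in ΔTreg mice, and Tbx1, a T-box factor of bulge cells, at 84.9 and 97.8, 93.8 to 103, 86.8 to 114 and 82.0 to 90.0 CPM in the same order. Neither of these passed in any of the 6 comparisons of the main test, in which their log2 fold changes lay between -0.17 and 0.19. In ΔTreg against ΔETreg skin both passed with edgeR on those groups only (adjusted p = 0.0269 for Tbx1 and 0.0387 for Tcf7l1). Tbx1 also passed there with DESeq2 (adjusted p = 0.0355).

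Cd34, a surface glycoprotein of the bulge that endothelial cells and fibroblasts also carry, was at 80.0 and 81.0 CPM in control, 73.8, 92.4 and 70.7 CPM in ΔETreg, 102, 93.0 and 56.4 CPM in ΔLTreg and 87.7, 99.3 and 93.8 CPM in ΔTreg mice. The ΔLTreg mice spread most, by 1.81 times from lowest to highest. The summed level of 7 dermal fibroblast genes in those 3 mice was 11651, 13027 and 5987 CPM, lowest in the mouse where Cd34 was lowest, while 7 endothelial genes summed to between 227 and 237 CPM. The fibroblast sum was 7355 to 8334 CPM in ΔTreg and 13010 to 15368 CPM in control mice, while Cd34 was higher in every ΔTreg mouse than in control. Among ΔETreg mice the sum and Cd34 were both highest in mouse 2, while the sum was lowest in mouse 1 and Cd34 in mouse 3. The part of fibroblast and endothelial genes in the Cd34 values was not tested. The Cd34 difference from control was 0.22 in ΔTreg (SE 0.200, adjusted p = 0.483) and 0.06 in ΔLTreg skin (SE 0.199, adjusted p = 0.915). The ΔTreg value passed with edgeR on those groups only (adjusted p = 0.0380) and not with DESeq2 (0.0581), so this call depends on the test. Against ΔETreg skin, Cd34 in ΔTreg skin passed with DESeq2 (adjusted p = 0.0402) and not in the main test (0.374).

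Lrig1, a membrane protein that restrains ERBB receptor signalling and marks the junctional zone, was among the steadiest markers, at 234 and 227 CPM in control, 229, 261 and 242 CPM in ΔETreg, 268, 241 and 223 CPM in ΔLTreg and 219, 215 and 229 CPM in ΔTreg mice. The groups overlapped in every comparison with control, and its log2 fold change was -0.06 in ΔTreg skin (95% interval -0.24 to 0.12). Of the 9 tested genes of a list of ERBB receptors, their ligands, LRIG relatives and Met, 1 rose and 1 fell in ΔTreg against control skin, a share close to the 21.5% of all genes that passed. Hbegf, an ERBB ligand, rose by 0.80 (SE 0.122, adjusted p = 0.000975) and Met, the receptor for hepatocyte growth factor, fell by 0.37 on the log2 scale (SE 0.101, adjusted p = 0.0228). Annotated exons of Lrig1, Cd34 and Tcf7l1 share 144, 148 and 179 bases with genes on the other strand, and as the strand setting of the counting is not given, reads there cannot be told apart.

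Counted together in ΔTreg against control skin, 8 of the 10 markers had a negative log2 fold change, with a median of -0.16 beside -0.01 over all genes. The mice did not overlap for 4 lower and 2 higher markers, where 25.8% and 26.8% of all genes tested did so in those directions. In ΔLTreg against control skin 5 were negative and 5 positive, with a median of -0.06 beside 0.00. There too 4 lower and 2 higher markers did not overlap, where 17.2% and 15% of genes did so. In ΔTreg against ΔLTreg skin the median was 0.00 for markers and for all genes, and Krt15 was the 1 marker whose groups did not overlap, where 16.7% of genes were lower without overlap. In ΔETreg against ΔLTreg skin, Lgr5 and Lgr6 were higher and Krt15 lower without overlap, where 12.6% of genes were higher and 13.7% lower. In ΔTreg against ΔETreg skin 6 markers were lower and 1 higher without overlap, where 21.7% and 23.4% of genes were.

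Some of the spread lay in single mice. ΔLTreg mouse 1 was the highest of its group for 8 of the 10 markers and the lowest for none, and ΔETreg mouse 1 was the lowest of its group for 7 and the highest for none. In ΔLTreg mouse 1 hair matrix and shaft genes summed to 10428 CPM, against 14500 and 14213 CPM in the other ΔLTreg mice, and skeletal muscle genes summed to 3180 CPM, against 1306 and 4166 CPM. Basal keratinocyte genes summed to 11246 CPM in ΔLTreg mouse 1, against 10391 and 9928 CPM in the others of its group. In ΔETreg mouse 1 they summed to 8830 CPM, against 9699 and 9709 CPM. The part of these compartments in the spread was not tested. Without ΔLTreg mouse 1, Lgr5, Lhx2 and Tcf7l1 were the markers past adjustment in ΔETreg against ΔLTreg skin. Lhx2 and Tcf7l1 passed there under no other setting and with no other mouse left out. Over all genes, 1173 passed in that comparison, and 353 to 1172 with a mouse left out.

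To set the markers against the epithelium, the log2 CPM of each was taken relative to the mean of 8 basal keratinocyte genes in the same mouse. On this scale Krt15 averaged 0.40 over the controls, 0.33 over ΔETreg, 0.64 over ΔLTreg and -0.10 over ΔTreg mice, and the ΔTreg minus ΔLTreg difference was -0.74, with no overlap (two-sided exact permutation test, p = 0.1, the smallest that 3 mice against 3 can give). Lgr6 differed from control by -0.65 and Lgr5 by -0.51 in ΔTreg mice, each without overlap and each at p = 0.1 in the exact permutation test, again the smallest possible with 3 against 2. Relative to basal genes 8 of the 10 markers in ΔTreg mice were below both control mice, Sox9 was above both, and Cd34 overlapped. On this scale 51% of all genes tested were lower and 14% higher without overlap, and the basal mean itself was higher in ΔTreg mice, at 9.13 to 9.16 log2 CPM against 8.95 and 8.99 in control mice. Among the basal genes themselves, Krt14 and Dsg3, a basal keratin and a desmosomal cadherin, were higher in ΔTreg than in control skin by 0.40 (adjusted p = 0.0180) and 0.32 (adjusted p = 0.00145).

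**Figure D3:**
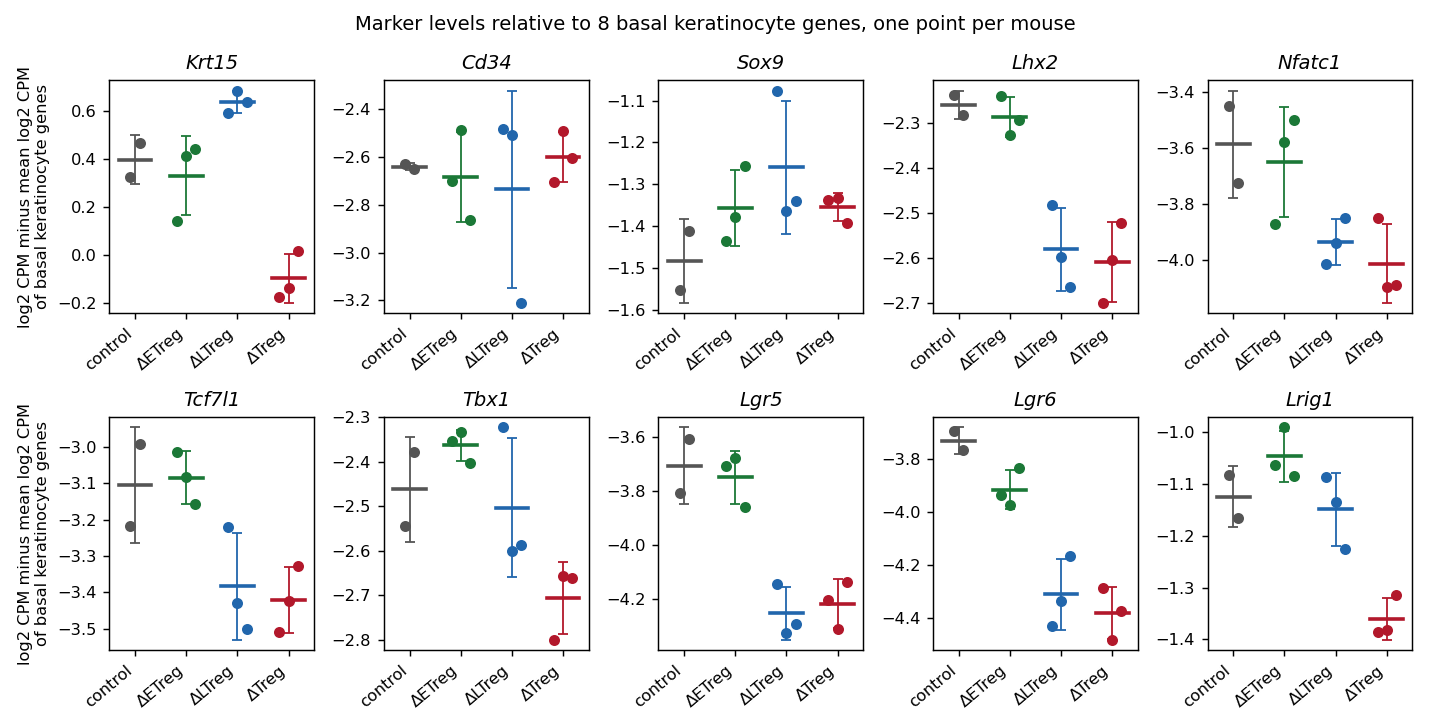
Log2 CPM of each marker minus the mean log2 CPM of 8 basal keratinocyte genes in the same mouse (y axis, not starting at 0, with its own scale in each panel), 1 point per mouse, with group means and error bars of 1 SD (n = 2 for control, n = 3 for the others). Krt15 lies between 0.59 and 0.69 in ΔLTreg and between -0.17 and 0.02 in ΔTreg mice, and Lgr5 and Lgr6 are lower in both P13 groups than in control and ΔETreg mice.

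Of 20 other genes of the bulge and hair germ, 1 rose, 4 fell and 15 did not pass in ΔTreg against control skin, a share close to the 21.5% of all genes that passed. Runx1, a factor that promotes follicle stem cell activation, rose by 0.53 (SE 0.0595, adjusted p = 0.000121), and Fst, which encodes the activin and BMP antagonist follistatin, fell by 0.73 on the log2 scale (SE 0.104, adjusted p = 0.000618), with Npnt, Fgf18 and Dkk3 also lower, named after their values were seen. Leukocyte genes summed to 164 to 202 CPM in ΔTreg and 61.1 to 92.2 CPM in control mice, and their part in the Runx1 value was not tested. None of the 20 passed in ΔLTreg against control skin with edgeR, where 8 had an unadjusted p under 0.05, as had 20.2% of all genes tested. Of 6 genes of the isthmus, junctional zone and infundibulum, 3 rose and 1 fell in ΔTreg skin, among them Plet1, a marker of the isthmus, at 0.40 (SE 0.0814, adjusted p = 0.00524), and Sostdc1, a BMP and WNT antagonist, at -0.86 (SE 0.0832, adjusted p = 4.7e-05). Plet1 was also higher in ΔLTreg than in control skin, by 0.44 (adjusted p = 0.0141), and Sostdc1 was -0.05 there (adjusted p = 0.774). Of 12 BMP and calcineurin-NFAT genes linked to stem cell quiescence, Smad1 rose and Id3 and Cdk4 fell in ΔTreg skin, at 0.19, -0.33 and -0.22 (adjusted p = 0.0148, 0.00323 and 0.0461), Cdk4 being named after its value was seen.

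Markers of neighbouring compartments were compared between ΔTreg and control skin, where 12.1% of all genes rose and 9.39% fell. These lists too were chosen with earlier results of these data known, and their counts are a description only. The hair matrix, muscle, fibroblast and sebaceous lists, with 1 or 2 genes past adjustment in each, did not stand far from the 21.5% of all genes that passed. Of 8 cell cycle genes 7 fell, led by Bub1 at -0.40 (adjusted p = 0.00335) and Cdk1 at -0.29 (0.00990). Of 6 suprabasal keratinocyte genes 3 fell, led by Flg at -2.32 (0.000140) and Krt1 at -1.93 (0.000664), and 2 of those 6 fell in ΔLTreg skin as well. Of 7 hair matrix and shaft genes 1 fell, Shh at -0.65 (0.00145), and Krt35 was -0.30 without passing (0.271). Of 6 sebaceous gland genes 2 fell, Awat2 at -0.98 (0.00109) and Soat1 at -0.31 (0.0418). Of 7 endothelial genes Pecam1 rose by 0.69 (5.6e-06), Kdr fell by 0.67 (0.00303) and 1 more fell. Of 7 fibroblast genes 2 fell, Col1a1 at -1.02 (0.0300) and Lum at -0.94 (0.0302). Of 6 leukocyte genes 5 rose, among them Cd4 by 2.83 (0.000166), and Cd8a, at or under 3 counts in both control mice, is given no fold. Of 5 muscle genes Myh4 passed, at 3.46 (0.00624), and Ckm did not, at 0.88 (0.163). All p-values here are adjusted ones from the edgeR test. None of the 122 list genes tested passed in ΔETreg against control skin (4 had an unadjusted p under 0.05), and the part of these compartments in the marker values was not tested.

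**Figure D4:**
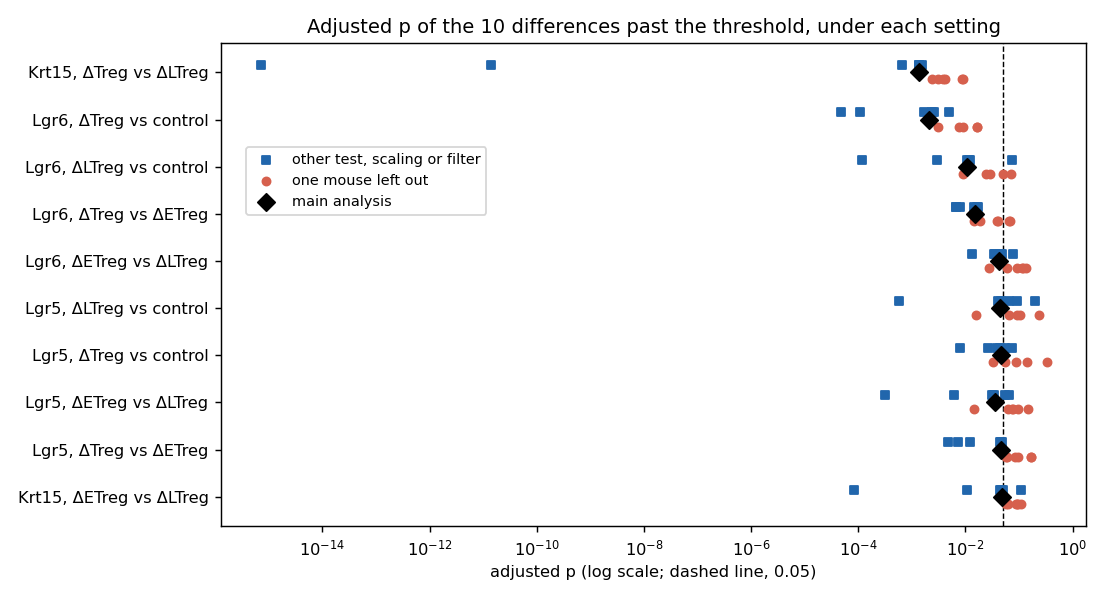
Adjusted p (x axis, log scale) of the 10 marker differences past 0.05 (dashed line) in the main test (black diamonds), under 6 other tests, scalings or filters (blue squares) and with each mouse of the groups compared left out (red circles). Krt15 in ΔTreg against ΔLTreg skin and Lgr6 in ΔTreg against control skin stay left of the line throughout, while points of the other 8 fall on both sides.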

How the data were processed

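Whole skin of 11 mice was sequenced, 1 library per mouse. Per the labels and methods, the authors used Trimmomatic 0.36 for trimming, STAR 2.5.2b for mapping to GRCm38 and featureCounts (Subread 1.5.2) for counting uniquely assigned exonic reads, and deposited raw counts per gene. The annotation release and strand setting are not given in the sources used here. Coordinates and exon lengths are from GENCODE M21 (GRCm38), in which 49056 of the 49315 gene IDs were found. The authors' own comparisons, made with DESeq2, were not used.

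The tests were run with edgeR 4.0.16 under R 4.3.3. After filterByExpr by group (18375 genes) and TMM scaling, 1 quasi-likelihood model was fitted to all 11 libraries and tested for 6 pairs of groups, with Benjamini-Hochberg adjustment over all genes tested. A gene passed, rose or fell at an adjusted p under 0.05. Standard errors were obtained from the log2 fold change and the F statistic, as their ratio after taking the root of F. CPM used TMM-scaled library sizes, and log2 CPM a prior count of 2. The 8 basal keratinocyte genes were Krt5, Krt14, Trp63, Itgb4, Lamb3, Dsc3, Dsg3 and Perp.

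Alternatives were DESeq2 1.42.0 on the 2 groups compared, edgeR on those groups only, scaling by RLE (the size factors of DESeq2) or by library size alone, a filter of only 1 count or of 10 counts in every library, and each mouse left out. Genes named were the 10 markers, from each list the 2 genes of smallest p in ΔTreg against control, and for each marker past adjustment the 2 genes with a mean count of at least 50 and the nearest profile over the 11 libraries. Other list genes were named after their values were seen, as the text says. Those for Krt15 are not reported here. The markers and lists were chosen with earlier results of these data known. Areg and Krt85 were not analysed here. The paper speaks of biological replicates, and each library was taken as 1 mouse, so on that reading p-values measure the spread between mice. For pairs of libraries within a group the median chi-square over genes was 0.988 to 3.24, where counting error alone gives 0.455.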

Additional observations from a re-analysis of the deposited data

Results flagged for a closer look

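The levels of 3 markers differed between DT groups by a direct test of the difference (edgeR quasi-likelihood test, adjusted p under 0.05). Of all genes tested, 16.8% passed in ΔTreg against ΔLTreg, 6.38% in ΔETreg against ΔLTreg and 23.1% in ΔTreg against ΔETreg skin. Krt15 was lower in ΔTreg than in ΔLTreg skin by a log2 fold change of -0.66, with all 3 ΔTreg mice below all 3 ΔLTreg mice. Of all genes tested, 16.7% were lower there without overlap. The ΔTreg and ΔLTreg mice lay on opposite sides of the control mice. Neither difference from control passed in the edgeR test (adjusted p = 0.0745 in ΔTreg and 0.129 in ΔLTreg skin). Krt15 was also lower in ΔETreg than in ΔLTreg skin, at -0.40, a call lost whichever of the 6 mice was left out. Lgr5 and Lgr6 were higher in ΔETreg than in ΔLTreg skin, at 0.40 and 0.29, and lower in ΔTreg than in ΔETreg skin, at -0.30 and -0.29, all 3 mice against all 3 in each case. Without overlap, 12.6% of all genes were higher in ΔETreg than in ΔLTreg and 21.7% lower in ΔTreg than in ΔETreg skin. With each of 6 mice left out, the Lgr5 and Lgr6 calls against ΔLTreg skin each held 1 time. In ΔTreg against ΔETreg skin the Lgr6 call held 4 times and the Lgr5 call 0 times. In the ΔETreg comparisons harvest day differs with the regimen and cannot be told apart from it, while ΔTreg and ΔLTreg mice were harvested on the same day. In that same-day comparison Lgr5 and Lgr6 were at 0.10 and 0.00 (adjusted p = 0.529 and 1.00) and did not pass. The rank of single mice is described with the markers, and no test for outlying mice was run in groups of 2 or 3.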

How the results depend on the processing

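Krt15 in ΔTreg against ΔLTreg skin passed under all 6 other settings (adjusted p 7.01e-16 to 0.00155) and with each of 6 mice left out (0.00234 to 0.00913), and Lgr6 in ΔTreg against control skin under all 6 (4.7e-05 to 0.005) and each of 5 mice (0.00302 to 0.0161). The number of markers past adjustment was 1 in ΔTreg against ΔLTreg and 0 in ΔETreg against control skin under every setting. In ΔTreg against control skin it was 2, and became 1 with library size, 4 with no filter, 1 with at least 10 counts, 5 with edgeR on 2 groups, 4 with DESeq2 and 1 to 2 with a mouse left out. In ΔLTreg against control skin it was 2, and became 1 with library size, 4 with no filter, 0 with edgeR on 2 groups and 0 to 3 with a mouse left out. In that comparison DESeq2 kept 2, with Krt15 in place of Lgr5. In ΔETreg against ΔLTreg skin 3 became 2 with RLE (without Krt15), 2 with library size (without Lgr5), 0 with edgeR on 2 groups and 0 to 3 with a mouse left out, and in ΔTreg against ΔETreg skin 2 became 3 with library size, 3 with no filter, 5 with edgeR on 2 groups, 5 with DESeq2 and 0 to 3 with a mouse left out. Leaving out a control mouse leaves 1, which is assumed to vary like the other groups. The cause of these shifts was not tested.

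Over all genes, 836 passed in ΔLTreg against control skin, and between 154 and 1790 under the other settings. The corresponding counts were 1173 and 540 to 2173 in ΔETreg against ΔLTreg skin, and 1 and 0 to 54 in ΔETreg against control skin. With a mouse left out, these 3 counts were 292 to 903, 353 to 1172 and 0 to 7. In ΔTreg against control skin 3946 passed, and 2026 to 3493 with a mouse left out, fewest without control mouse 2. In ΔTreg against ΔLTreg skin 3096 passed, and 1987 to 2942 with a mouse left out, fewest without ΔTreg mouse 1. No scaling moved the median of all genes by over 0.1 on the log2 scale.

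Among the log2 fold changes of single markers, a sign changed only where the main value was no larger than 0.16 in size. With library size, Cd34 and Lhx2 in ΔETreg against control skin became 0.00694 and 0.0133, and Lgr6 and Tcf7l1 in ΔTreg against ΔLTreg skin -0.0250 and -0.00603. Lgr6 there was -0.000231 with edgeR on 2 groups and -0.00170 with DESeq2, and Nfatc1 0.000786 with at least 10 counts. With a mouse left out, the log2 fold changes that changed sign ranged as follows. In ΔETreg against control skin Cd34 ranged from -0.16 to 0.045, Krt15 from -0.14 to 0.071, Lgr5 from -0.15 to 0.081, Nfatc1 from -0.16 to 0.087 and Tcf7l1 from -0.11 to 0.16. In ΔTreg against ΔLTreg skin Cd34 ranged from -0.056 to 0.33, Lgr6 from -0.057 to 0.059, Lhx2 from -0.024 to 0.13, Nfatc1 from -0.099 to 0.047, Sox9 from -0.11 to 0.10 and Tcf7l1 from -0.057 to 0.15. In ΔETreg against ΔLTreg skin Cd34 ranged from -0.30 to 0.084, Lrig1 from -0.053 to 0.072 and Tbx1 from -0.034 to 0.17. Against control, Cd34 in ΔLTreg skin ranged from -0.11 to 0.28, and Tbx1 from -0.17 to 0.027 in ΔTreg and from -0.068 to 0.18 in ΔLTreg skin. No paired analysis was possible because the labels carry no replicate numbers shared between groups.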

Other observations

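The tested genes with a profile over the 11 libraries nearest to Lgr5 and Lgr6 were listed by root mean square difference of centred log2 CPM, over 13896 genes with a mean count of at least 50, as a description only. Sema5a (0.0688) and Cspg4 (0.0756) were nearest to Lgr5, whose own SD over the libraries was 0.224. Tmem132a (0.0716) and Agpat5 (0.0749) were nearest to Lgr6 (SD 0.216).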
